A study of Mus musculus with 18 samples.

Results

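The regions described here are 1180 stretches of the mouse genome, each 1000 bp long, that were heavily methylated in embryonic stem cells rescued with wild-type (WT) DNMT1 and nearly free of methylation in cells rescued with the W464A/W465A mutant. The autosomes were cut into 1000 bp tiles, and a tile was eligible when at least 3 of its CpGs had at least 5 reads in all 18 libraries. The members were chosen by their pooled level, the methylated calls divided by all calls over 3 libraries: 80% or more in WT and 10% or less in W464A/W465A. This held for 1180 of 154801 eligible tiles (0.762%), and for 1.905% of the 61953 tiles with a pooled WT level of 80% or more. The members hold 5737 of the CpGs used. Since WT and W464A/W465A chose the members, their values are given as a description, and tests use the other 4 groups.

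All cells were Dnmt1-knockout mouse embryonic stem cells carrying a puromycin-selected DNMT1 transgene, so every group, WT included, lacks the endogenous enzyme. The 6 transgenes were WT, W796A, W465A, W464A/W465A, W465A/W796A and the triple mutant W464A/W465A/W796A, in each of which the named tryptophans are replaced by alanine. Each group has 3 libraries that the labels call biological replicates; several stable lines were made per group, and which line gave which library is not stated, so p-values measure the spread between these libraries. Methylation was read by enhanced reduced representation bisulfite sequencing, in which DNA is cut with MspI, BfaI and MseI before bisulfite conversion, and CpGs near those cut sites are sampled preferentially.

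DNMT1 copies CpG methylation onto the new DNA strand after replication, and without it the pattern is diluted at each division. Its RFTS domain, which holds W464 and W465, recognises histone H3 marks including H3K9me3, and its first BAH domain, which holds W796, binds H4K20me3. Both marks are typical of heterochromatin and of silenced repeats. A level is a share of reads from many cells, so complete loss in some cells and partial loss in all of them cannot be told apart.

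The libraries held between 59776439 and 138978763 CpG calls. WT replicate 1 and W796A replicate 1 were lower than the other libraries of their groups, with member medians of 75% and 62.2%. No pair of libraries within a group agreed within sampling noise, the mean chi-square per tile (1 degree of freedom) being at least 1.92. As a check of the cell label, promoter CpGs of the stem cell genes Pou5f1, Sox2, Klf4, Esrrb and Tdgf1 were at most 1.52, 0.710, 0.239, 4.03 and 7.81% methylated in any WT library. Nanog, Dppa4 and Zfp42 had 1 promoter CpG each, with WT libraries up to 20, 25 and 83.3%, so the check is incomplete; RNA was not measured.

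The sequences below show what the most deeply read members look like, beside 1 tile that was similarly methylated in WT but did not pass the W464A/W465A limit. Each is a window of 300 bases on the GRCm38 plus strand centred on the CpGs used, named by the nearest protein-coding gene, and capitals mark the CpGs that entered the level. The first 4 are members and the last, at AW822073, is not.
Prl2c3, chr13:12861355-12861654, plus strand: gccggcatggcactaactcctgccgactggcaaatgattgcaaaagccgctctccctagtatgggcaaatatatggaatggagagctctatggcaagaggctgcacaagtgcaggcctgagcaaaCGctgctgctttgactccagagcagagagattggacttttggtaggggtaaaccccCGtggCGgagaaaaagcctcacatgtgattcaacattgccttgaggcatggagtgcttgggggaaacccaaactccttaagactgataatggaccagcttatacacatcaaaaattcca
Gm4788, chr1:139641374-139641673, plus strand: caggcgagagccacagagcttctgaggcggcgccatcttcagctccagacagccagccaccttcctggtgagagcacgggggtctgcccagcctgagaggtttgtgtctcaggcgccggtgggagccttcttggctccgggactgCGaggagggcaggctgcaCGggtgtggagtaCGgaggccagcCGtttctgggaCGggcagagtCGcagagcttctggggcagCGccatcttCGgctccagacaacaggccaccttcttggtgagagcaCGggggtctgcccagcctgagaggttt
Nsun3, chr16:62664262-62664561, plus strand: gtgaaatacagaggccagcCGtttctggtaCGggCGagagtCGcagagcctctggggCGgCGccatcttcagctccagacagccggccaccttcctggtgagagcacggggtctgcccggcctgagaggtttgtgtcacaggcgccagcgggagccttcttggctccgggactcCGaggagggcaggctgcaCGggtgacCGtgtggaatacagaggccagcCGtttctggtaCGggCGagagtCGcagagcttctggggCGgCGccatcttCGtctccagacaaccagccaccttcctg
Dthd1, chr5:62869120-62869419, plus strand: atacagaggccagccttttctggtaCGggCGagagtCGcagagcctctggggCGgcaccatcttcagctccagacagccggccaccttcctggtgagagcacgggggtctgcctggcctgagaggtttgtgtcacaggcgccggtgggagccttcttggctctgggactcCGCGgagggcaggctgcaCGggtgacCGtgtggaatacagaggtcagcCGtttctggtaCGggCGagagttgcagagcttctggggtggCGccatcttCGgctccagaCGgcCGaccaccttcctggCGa
AW822073, chr10:58224329-58224628, plus strand: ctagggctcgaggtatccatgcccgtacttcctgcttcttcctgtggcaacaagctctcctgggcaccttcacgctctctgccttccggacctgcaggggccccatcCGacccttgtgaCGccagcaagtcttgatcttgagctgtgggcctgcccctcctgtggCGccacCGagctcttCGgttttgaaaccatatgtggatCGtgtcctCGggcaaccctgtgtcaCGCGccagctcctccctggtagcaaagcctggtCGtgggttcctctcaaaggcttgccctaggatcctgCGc
The Gm4788, Nsun3 and Dthd1 windows resemble each other and hold the word GCCACCTTCCTG, which is the reverse complement of CAGGAAGGTGGC, at 1, 2 and 1 places. The Prl2c3 and AW822073 windows do not hold it. The 3 look-alike windows lie on 3 different chromosomes and hold 16, 22 and 20 CpGs, against 6 at Prl2c3 and 15 at AW822073. The 4 member windows are 96 to 100% repeat-masked and the AW822073 window 7%. A more deeply read non-member, at Gm10800, is not shown. Its window is 100% repeat-masked and holds 8 CpGs.

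Member methylation was lower than in WT in W465A, W465A/W796A and the triple mutant, by an amount that differed between these rescues. The levels in WT and W464A/W465A were limited by the choice. Median member levels in the 3 WT libraries were 75, 87.4 and 88.0%, and in the W796A libraries 62.2, 91.2 and 86.7%. In W465A/W796A they were 55.7, 48.2 and 49.2%, and in W465A 27.9, 15.1 and 16.9%. The WT and W796A libraries overlap, and each other group lies below both.

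In the triple mutant, which was not used to choose the members, the medians were 12.5, 15.8 and 12.2%, or 13.5% ± 1.99 (SD, n = 3). In W464A/W465A, which was used, they were 6.90, 9.26 and 6.38%. The 10% limit fixes the W464A/W465A values, so their order against the triple mutant is not read; the highest triple mutant library lies above W465A replicate 2 and below the other W465A libraries. Means ± SD (n = 3) were 83.5% ± 7.34 in WT, 80.0% ± 15.6 in W796A, 51.0% ± 4.075 in W465A/W796A and 19.95% ± 6.98 in W465A.

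The members were also lower than comparable tiles in groups that did not choose them. The comparison set is the other 60773 tiles with a pooled WT level of 80% or more. Its median was 27.7% ± 3.19 (SD, n = 3) in the triple mutant, 38.8% ± 7.85 in W465A, 63.6% ± 4.215 in W465A/W796A and 82.1% ± 13.45 in W796A. Member medians were below those of the comparison set in all 12 libraries of these groups. The gap was −14.25 ± 1.33 points in the triple mutant, −18.8 ± 0.872 in W465A, −12.6 ± 0.930 in W465A/W796A and −2.04 ± 2.14 in W796A. In WT, which chose the members, it was −1.14 ± 0.841 points, so the W796A gap is not read as a lower level. In the triple mutant 257 members (21.8%) had a pooled level of 10% or less, against 0.834% of the comparison set. At 20% or less the shares were 1001 members (84.8%) and 17.9%.

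**Figure D1:**
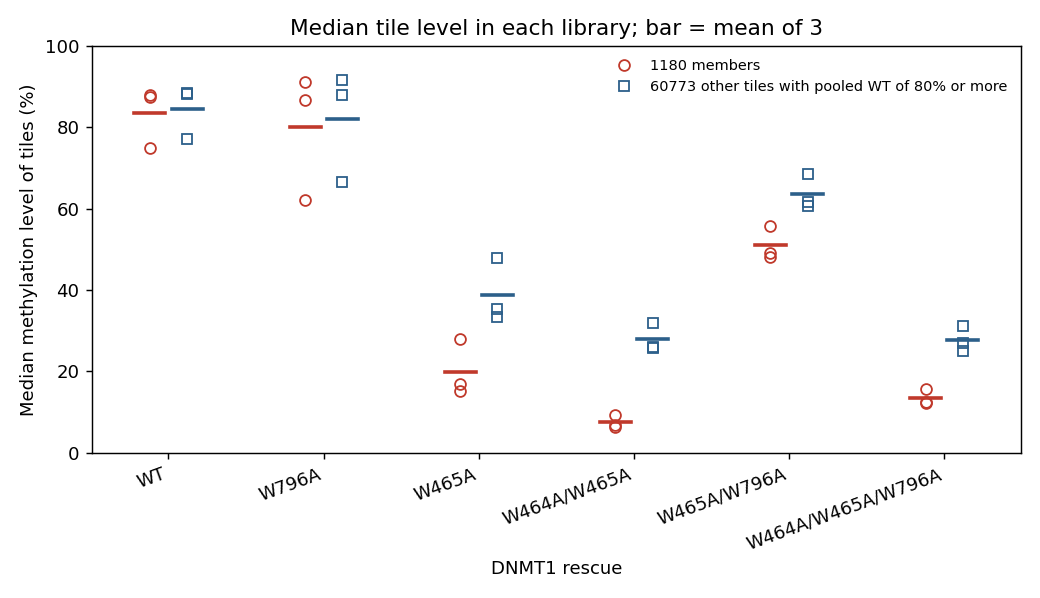
Median methylation level (%) of the 1180 members (circles) and of the 60773 other tiles with pooled WT of 80% or more (squares) in each of the 3 libraries per DNMT1 rescue, with a bar at the mean of 3. The sets lie close together in W796A and apart in W465A, W465A/W796A and the triple mutant, where the member libraries sit between 12.2 and 15.8%. Their closeness in WT and their separation in W464A/W465A follow from the choice of members.

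A graded relation ran through the tiles below the choice as well. Of tiles with WT of 80% or more, those at 10 to 15% in W464A/W465A had a median of 17.5% in the triple mutant, those at 20 to 30% had 25.6%, and those above 40% had 38.5%. The members had 13.8%, with quartiles of 10.5 and 17.6%. In the same order W465A/W796A had medians of 51.6% in members, 55.6, 62.4 and 70.2%. The classes are cut on the W464A/W465A level, so its own distance from the triple mutant in each class is set in part by the cut and is not read here.

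**Figure D2:**
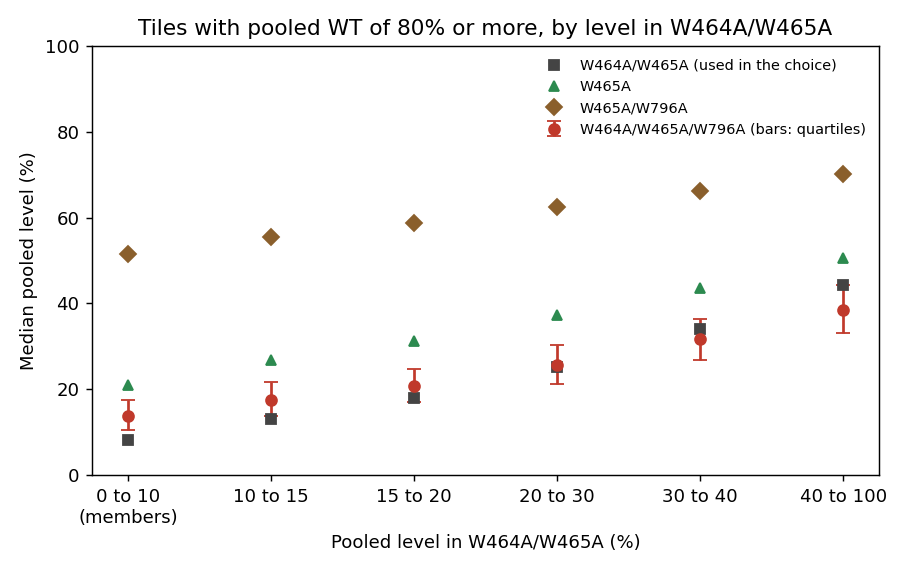
Median pooled level (%) of tiles with pooled WT of 80% or more, grouped by their pooled level in W464A/W465A (%), with quartiles for the triple mutant. The members are the leftmost class, at 13.8% in the triple mutant, 21.1% in W465A and 51.6% in W465A/W796A.

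W464A/W465A libraries left out of the choice read higher than those that made it. When tiles were chosen from 2 same-numbered replicates of each group, the third W464A/W465A library gave medians of 10.6, 17.5 and 10.3% with replicate 1, 2 and 3 left out. The tiles not chosen had 25, 33.3 and 25.9%. In that left-out library 47.4, 20.4 and 49.7% of the chosen tiles were at 10% or less. Of the tiles not chosen it was 6.92, 2.25 and 6.86%. The left-out WT libraries gave the chosen tiles medians of 66.7, 85.9 and 85.4%, against 73.5, 87.8 and 87.5%, and 17.2, 81.3 and 67.65% of the chosen tiles reached 80% there. All 3 W464A/W465A libraries were at 10% or less in 318 members, all 3 WT libraries at 80% or more in 271, and both held in 76.

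Tiles just inside and just outside the limits are given without a test. The member near Rapgef4, a guanine nucleotide exchange factor gene, was at 10% in W464A/W465A, and the tile near Ptpn20, which is not a member, was at 10.01%. Their triple mutant levels were 12.3 and 21.3%. At the WT limit, the member in an exon of Btg2, an antiproliferative gene, was at 80.0% and the tile near Nobox at 79.99%, with 6.34 and 14.3% in the triple mutant.

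The 12 members with the most reads (253 to 1643 per library) show the pattern with the least counting error. They lie on 9 chromosomes, and in all 12 most of the bases are repeat-masked. The tile near Prl2c3, a prolactin-family hormone gene, read 77.0, 87.8 and 86.9% in WT, 30.3, 10.97 and 11.5% in W465A, and 7.55, 8.63 and 7.80% in W464A/W465A. It read 68.1, 90.2 and 88.2% in W796A, 51.4, 45.1 and 54.6% in W465A/W796A, and 7.47, 12.7 and 10.99% in the triple mutant. No triple mutant library overlapped a W796A or W465A/W796A library.

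In the intron of Dthd1 the WT libraries read 70.8, 85.4 and 81.1% and the W796A libraries 45.5, 86.2 and 72.5%. The W465A/W796A libraries read 48.2, 29.0 and 37.1%, and the triple mutant 12.8, 10.4 and 11.1%. W796A replicate 1 falls inside the W465A/W796A range here. In the tile near Klhl6, a ubiquitin ligase adaptor gene of B cells, the triple mutant libraries read 9.65, 10.1 and 9.68% and the W465A/W796A libraries 45.0, 41.7 and 41.2%. Over the 12 tiles, pooled levels ran from 9.40 to 12.6% in the triple mutant, 13.0 to 19.4% in W465A, 37.1 to 53.4% in W465A/W796A and 60.8 to 82.2% in W796A.

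**Figure D3:**
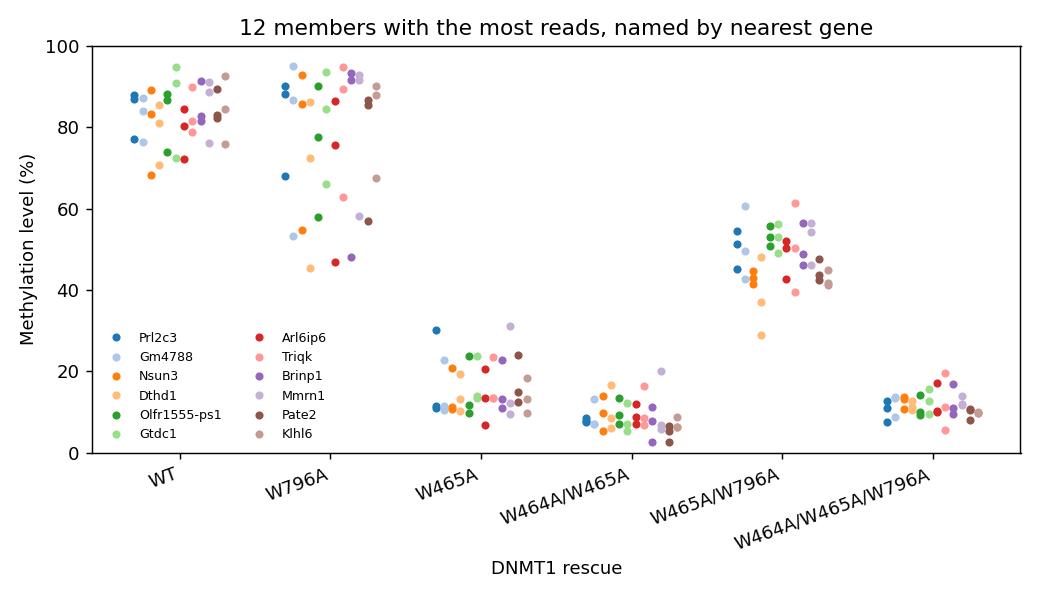
Methylation level (%) in every library of each DNMT1 rescue for the 12 members with the most reads, 1 colour per tile, named by the nearest protein-coding gene. Every triple mutant library is between 5.62 and 19.5%, and every W465A/W796A library between 29.0 and 61.4%.

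Each tile was tested with a quasi-binomial model of its methylated and total calls in the 12 libraries that did not choose the members. A tile was called when its adjusted p (Benjamini-Hochberg over 154801 tiles) was under 0.05 and its pooled levels differed by at least 10 points. With W464A/W465A added to W796A (triple mutant against W796A), 1177 members (99.75%) were called lower. Of all eligible tiles 84.1% were called lower and of the comparison set 99.5%, so the members' share is at the background of methylated tiles. The median difference was −65.3 points in members and −53.6 in the comparison set. With a term for each library's mean level, 49.9% of members and 11.8% of the comparison set were called.

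With W464A added to W465A/W796A, 1050 members (89.0%) were called lower, against 65.9% of all eligible tiles and 82.8% of the comparison set. Median differences were −37.25 and −35.3 points. With the library mean term 0 members and 0% of the comparison set were called. In that quasi-binomial fit 377 members had an unadjusted p under 0.05. The comparison set was not counted at that p, so 377 is not read as particular to the members. Without that term, limma called 90.3% and edgeR 91.8%, against 74.0 and 78.8% of the comparison set. Without W465A/W796A replicate 1, 56.6% of members and 43.4% of the comparison set were called.

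With W465A added to W796A, 436 members (36.95%) were called lower, against 17.2% of all eligible tiles and 15.2% of the comparison set. Median differences were −27.85 points in members, −17.9 in the comparison set and −16.5 in all eligible tiles. Of the members 1170 of 1180 were lower, a count not made for the other tiles. This count rested on single libraries: without W796A replicate 1 it was 90.1% of members and 77.3% of the comparison set, and without W465A/W796A replicate 3 it was 6.10 and 1.12%. With the library mean term the shares were 13.4 and 1.81%.

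With W796A added to W465A, 501 members (42.5%) were called higher, against 18.8% of all eligible tiles and 21.1% of the comparison set. The median difference was 29.99 points in members, 23.8 in the comparison set and 20.2 in all eligible tiles. Of the members 1176 of 1180 were higher, a count not made for the other tiles. Leaving out any 1 of W465A replicates 2 and 3 and W465A/W796A replicates 1 and 3 left no member called. The library mean term also left none, and 0.00329% of the comparison set was called with it. With that term 401 members had an unadjusted p under 0.05, a count not made for the comparison set. Without W796A replicate 1 the share was 73.4% of members and 56.6% of the comparison set. All 12 libraries share an overdispersion estimate, so a W796A library can change this comparison.

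**Figure D4:**
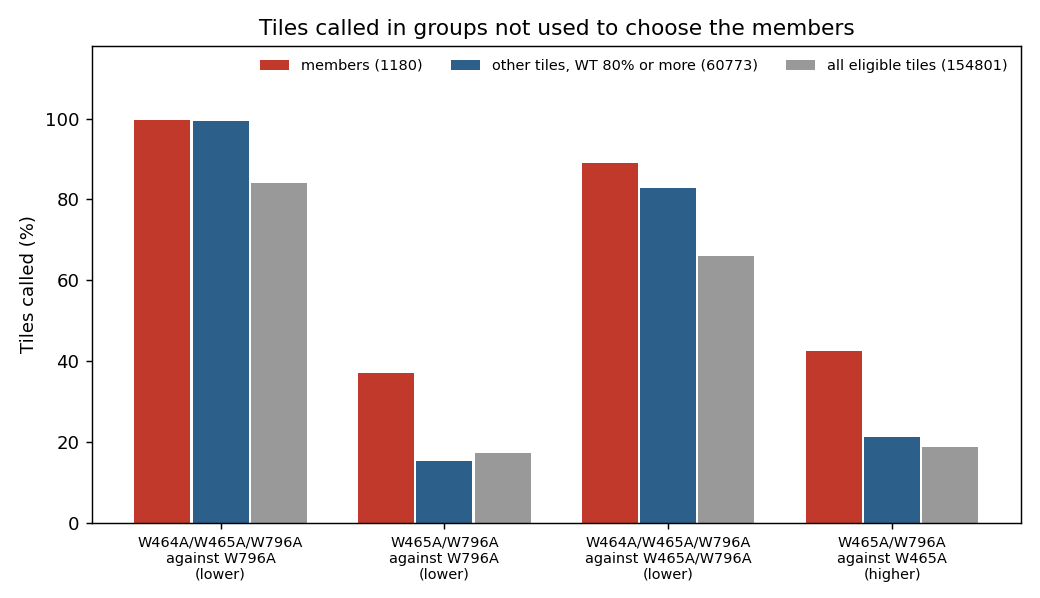
Percent of members, of other tiles with pooled WT of 80% or more and of all eligible tiles called in the 4 comparisons among groups that did not choose the members, with the direction under each. Members and other methylated tiles are both close to 100% in the first comparison, and the members stand at 36.95 against 15.2% in the second and 42.5 against 21.1% in the fourth.

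The members lie away from genes more often than the comparison set. By the GENCODE vM21 annotation 679 members (57.5%) were intergenic, 295 (25%) intronic, 180 (15.25%) exonic and 26 (2.20%) within 500 bp of a transcription start site. The comparison set had 29.6, 39.2, 29.6 and 1.63%. Protein-coding genes covered 35.6% of members and 63.9% of the comparison set, and 35.8 against 18.5% lay over 100 kb from a start site. Triple mutant medians hardly differed between the classes: 13.7% in intergenic, 14.3% in intronic and 13.5% in exonic members, and 17.2% in the 26 promoter members.

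CpG density differed from the comparison set at a short and a long scale, in opposite directions. Counted within 250 bp of a used CpG, the median was 10.25 CpGs in members and 9 in the comparison set, and 167 members (14.2%) had over 20 against 1.78%. The sparse end also held more members: 167 (14.2%) had 5 or fewer, against 10.05%. In the surrounding 100 kb the median was 8.11 CpGs per kb against 11.8. Members were 13.4% of the tiles with WT of 80% or more and over 20 CpGs within 250 bp, 1.26% of those with 5 to 10 and 2.66% of those with at most 5. They were 9.96% of such tiles in 100 kb windows with at most 6 CpGs per kb, and 0.974% at 10 to 15. The tile itself held a median of 15 CpGs in both sets, and its GC content was close, 46.6 against 47.5%.

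**Figure D5:**
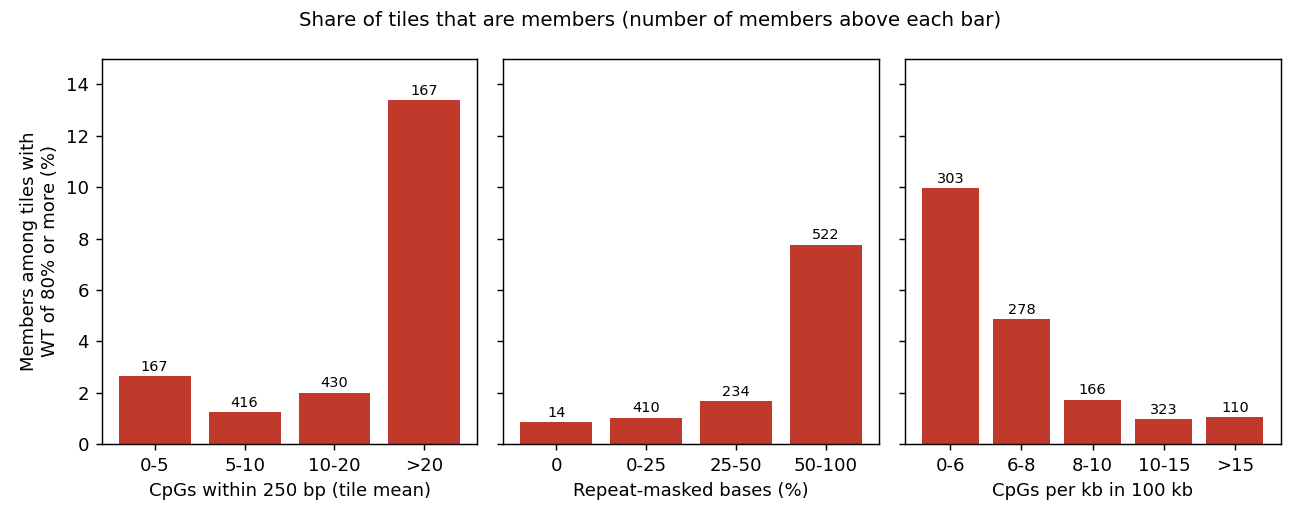
Members as a percent of the tiles with pooled WT of 80% or more, by CpGs within 250 bp, by repeat-masked bases (%) and by CpGs per kb in the surrounding 100 kb, with the number of members above each bar. The share is highest above 20 CpGs within 250 bp (13.4%), above 50% masked bases (7.76%) and at 6 or fewer CpGs per kb (9.96%).

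Repeats make up much of the set. The median member had 41.4% of its bases repeat-masked, against 16.5%, and every used CpG was masked in 413 members (35.0%) against 6.07%. Where all used CpGs were masked and there were over 20 CpGs within 250 bp, 25.3% of tiles were members (123 of 486), and without masking and with 20 or fewer CpGs it was 1.18%. Masked tiles with 20 or fewer CpGs were members at 8.02%, and unmasked tiles with over 20 at 1.95% (11 of 565), near the 1.905% of all tiles methylated in WT. In the triple mutant, means of the library medians were 13.3% ± 2.00 (SD, n = 3) in fully masked members and 13.4% ± 2.12 in the 554 members with no masked CpG. In W465A the fully masked members were lower in every library, at 25, 11.8 and 14.5% against 31.2, 17.8 and 19.3%. The comparison set had the same order, at 42.9, 28.2 and 30.95% in fully masked tiles against 48.5, 34.1 and 35.7%. Repeat names were not used here, and how reads that match several places were placed is not given in the sources used here; the part of this in the result was not tested.

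A short word was shared by some of the members. CAGGAAGGTGGC, searched on both strands, was picked after the values were seen because it separated members from the comparison set best, so its share is a description. It occurs in 163 members (13.8%), in 259 tiles of the comparison set (0.426%) and in 0.627% of all eligible tiles. Of the holders with WT of 80% or more, 38.6% are members. The word is in 11 of the 12 most deeply read members. Members holding it had medians of 16.45% in W465A, 48.4% in W465A/W796A and 11.7% in the triple mutant. Tiles of the comparison set holding it had 25.2, 56.8 and 19.7%. With 3 further words (GTAAGCAATAAA, CAGGGAAGGTGC and GTGTTCCACTCA) 340 members (28.8%) hold at least 1. The share was 3.19% in the comparison set and 3.43% in all eligible tiles. The 3 words were picked in the same way among tiles without the earlier words, so this contrast too is set by the search. Tiles holding a word share sequence and are not independent of each other. The 840 members with none of the words had a triple mutant median of 14.4%, against 27.9% in the comparison set without them.

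Most members had no other member nearby, but they lay near one another more often than comparison tiles lay near a member. Another member lay within 10000 bp of 59 members (5%), while 1.17% of the comparison set had a member that near. Within 100 kb the shares were 17.9 and 10.2%. The next tiles within 1000 bp of a member, also methylated in WT, had a median of 24.1% in the triple mutant, against 29.2% for neighbours of the comparison set. At 1000 to 10000 bp the values were 25.9 and 28.7%. Chromosome 3 held 100 members, 3.78% of its tiles with WT of 80% or more, and chromosome 8 held 54, or 1.27%.

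The alpha-protocadherin cluster was the main place where members gathered. Its genes encode neuronal cell adhesion proteins that share constant exons, so 1 tile counts for several Pcdha genes. All 7 Pcdha1 tiles with WT of 80% or more were members, with a triple mutant median of 8.32% and a W465A/W796A median of 41.7%. The most deeply read is at chr18:36992001-36993000, at the Pcdha8 promoter, with 15 CpGs used and 2.80% of its bases masked. It read 67.9, 84.9 and 83.9% in WT, 49.7, 92.1 and 90.3% in W796A, and 4.03, 1.98 and 2.53% in W465A. In W464A/W465A it read 0.769, 1.53 and 4.61%, in W465A/W796A 27.5, 20.3 and 20.9%, and in the triple mutant 1.22, 4.401 and 2.46%. The W465A, W464A/W465A and triple mutant libraries overlapped, all at 4.61% or less, and W465A/W796A lay between them and W796A without overlap. The triple mutant differed from W796A by −74.35 points (adjusted p = 4.29e-05 in the quasi-binomial model with limma-type squeezing) and W465A/W796A by −53.5 points (adjusted p = 0.00886). W465A/W796A was 20.2 points above W465A, which was not called (adjusted p = 0.0591).

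Cntnap2, which encodes a neuronal contactin-associated protein, held 3 members among 6 tiles with WT of 80% or more, with a triple mutant median of 7.14%. In the list of contactins, neurexins and neuroligins 6 of 64 such tiles (9.38%) were members, the 3 of Cntnap2 included. In that of cadherins and protocadherins it was 10 of 225 (4.44%), beside 1.905% over all such tiles. Of such tiles in protein-coding genes 1.07% were members, and of those elsewhere 3.345%. Without the 7 alpha-protocadherin tiles the second list has 3 of 218 (1.38%). Potassium channels had 1 of 257 (0.389%), solute carriers 11 of 878 (1.25%), zinc finger genes 10 of 420 (2.38%), olfactory receptors 3 of 50, vomeronasal receptors 2 of 28 (7.14%) and Hox genes 0 of 2. In all, 444 of 10773 protein-coding genes with a tile methylated in WT held a member, and 413 of them held 1.

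Among promoter members, Catsperg2, a subunit gene of the sperm calcium channel, read 83.9, 85.5 and 96.4% in WT and 10.98, 4.41 and 3.96% in W465A. Its triple mutant libraries read 5.83, 1.49 and 8.07% and its W465A/W796A libraries 47.5, 50.7 and 45.3%, with no overlap. The promoter of Ube2m, a NEDD8-conjugating enzyme gene, read 72.4, 64.6 and 53.0% in W465A/W796A and 50.8, 80.9 and 74.5% in W796A. These overlap, and their difference of −5.28 points was not called (adjusted p = 0.657, quasi-binomial model). The triple mutant libraries, at 5.20, 17.95 and 14.2%, lie below both.

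The members were not uniform in the groups that did not choose them. The highest triple mutant level among members with at least 20 reads was 38.2%, in an exon near Gas1, with libraries at 31.25, 51.0 and 33.9%. The lowest was 1.01%, near Kcnv1, with libraries at 2.56, 0 and 0%. In W465A/W796A the range ran from 22.8% in an intron of Ttll13, a tubulin glutamylase gene, to 79.05% in an intron of Zfp11. At Zfp11 the W465A/W796A libraries read 91.7, 84.6 and 66.7% and the W796A libraries 58.7, 92.0 and 86.7%, which overlap. At Ttll13 W465A/W796A read 22.8, 27.8 and 16.7%, overlapping the W465A libraries at 6.06, 23.3 and 20%. The gap to the comparison set was seen at each depth: members with at least 100 reads in every library (79) had a triple mutant median of 11.55% against 26.7%, and those with 15 to 19 reads (342) had 14.5% against 27.6%.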

How the data were processed

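Methylated and total calls per CpG came as counts in the table the authors deposited; per the submitters' processing notes, reads were handled with cutadapt 1.2.1, Bismark 0.18.1 and Bowtie 1.2 on mm10 (GRCm38). Duplicate removal and conversion rate are not given in the sources used here. All 21867550 listed positions are CpGs of GRCm38.p6. Counts were summed over autosomal 1000 bp tiles and fitted with a quasi-binomial logistic model in Python 3.11.15 with SciPy 1.17.1; overdispersion was squeezed across tiles as in limma and floored at 1. In simulated data with few changed tiles, the model recovered 71 of 80 changes of 70 points, 11 of 60 of 40 points and 2 of 60 of 20 points. Of the unchanged tiles 4 were called, and 6.47% had an unadjusted p under 0.05 in that model. The simulation was changed once, after a first version had been run. Far more tiles were called in the deposited data, which changes the adjusted p, so the recovered shares do not carry over. A tile not called may still differ. Alternatives used limma 3.58.1 and edgeR 4.0.16 (R 4.3.3). The members, gene lists and alternatives were chosen with earlier results of these data known. Named tiles follow fixed rules: most reads, promoters, extremes, tiles next to a limit, and 1 per gene list. Replicate numbers are not known to pair libraries (lowest same-number correlation -0.141). For W465A/W796A and W465A the same-number correlations were 0.121, 0.0307 and 0.0323, against -0.0702 to 0.0344 for other pairs.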

Additional observations from a re-analysis of the deposited data

How the results depend on the processing

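The number of members depends on the limits. It was 250 with at least 10 reads per CpG, 402 with at least 5 CpGs per tile, 41 at 85% and 5%, 7828 at 75% and 15%, and 76 when every library had to pass. Leaving out 1 library that chose them gave 759 (without WT replicate 2) to 2497 (without W464A/W465A replicate 2), and 2120 without WT replicate 1. The median triple mutant level of the members stayed within 13.0 to 15.6% on leaving out a library and was 11.7% at 85% and 5%. The excess of members over other tiles in CpGs within 250 bp, 1.25, was 6.84 among tiles with at least 50 reads, and the excess with every CpG masked, 28.9 points, was 56.4.

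Shares of members called (comparison set in brackets) on leaving out 1 fitted library ran from 99.4 to 99.9% (96.9 to 99.9%) for the triple mutant against W796A, 56.6 to 95.8% (43.4 to 92.4%) for the triple mutant against W465A/W796A, 6.10 to 90.1% (1.12 to 77.3%) for W465A/W796A against W796A and 0 to 73.4% (0 to 56.6%) for W465A/W796A against W465A. With an offset for the library mean level they were 49.9, 0, 13.4 and 0% (11.8, 0, 1.81 and 0.00329%) in that order. With at least 5 CpGs per tile the last was 63.9% (28.8%). With the replicate block they were 99.75, 80.85, 16.02 and 0% (98.9, 72.04, 4.98 and 0%). In the last, 760 members had an unadjusted p under 0.05, a count not made for the comparison set. The replicate numbers are not known to pair the libraries. The causes were not tested. Among members with no masked CpG, added after seeing the data, the shares were 99.6, 86.8, 26.9 and 30.9%, against 99.4, 82.5, 13.9 and 20.1% of unmasked tiles of the comparison set, so the first pair is near that background.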
